A study of Homo sapiens with 8 samples.

Results

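The miR-200 family was followed in HCT116 cells, a human colorectal cancer line of epithelial origin, through its 9 mature entries among the 2575 miRNA names of the deposited count files. Members were taken by name: hsa-miR-200b-3p, hsa-miR-200a-3p, hsa-miR-200c-3p and hsa-miR-141-3p with their partners hsa-miR-200b-5p, hsa-miR-200a-5p, hsa-miR-200c-5p and hsa-miR-141-5p, and hsa-miR-429, which is entered without an arm. The prefix hsa is left out from here on. Small RNA had been sequenced from 8 libraries of total cellular RNA. In 4 of them, the ETBF group, cells had spent 6 hours with enterotoxigenic Bacteroides fragilis at a multiplicity of infection of 500. The 4 control libraries, titled untreated, came from cells given bacterial medium lacking the bacterium. Both groups were adherent cultures of the same line at passages 16 to 19. Whether the replicates are separate cultures is not stated in the labels; the p-values measure only how these samples spread, and that spread may be technical. The comparison asks how this family stood soon after contact with a bacterium that the series title places in intestinal inflammation and colorectal carcinogenesis.

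MiRNAs of this family hold epithelial cells in their state by repressing ZEB1 and ZEB2, transcription factors that silence the E-cadherin gene CDH1. ZEB1 and ZEB2 in turn repress both miR-200 clusters, so the miRNAs and the factors form a double-negative loop that is studied in the epithelial-mesenchymal transition of colorectal and other carcinomas. ETBF is known for a secreted metalloprotease toxin that leads to cleavage of E-cadherin at the surface of colonic epithelial cells. MiRNAs pair with their targets mainly through the seed, bases 2 to 8 from the 5′ end. Each hairpin is cut into a 5p and a 3p arm, of which the major arm accumulates and the minor arm is mostly degraded.

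The family comes from 2 genomic clusters. Coordinates are on GRCh38, from GENCODE 29, while the submitters' processing notes name GRCh37.p5 and the files hold no positions. On the plus strand of chromosome 1 lie MIR200B (chr1:1167104-1167198), MIR200A (chr1:1167863-1167952) and MIR429 (chr1:1169005-1169087), together spanning 1984 bases. None of these hairpins lies wholly inside an annotated gene of another type. On the plus strand of chromosome 12 lie MIR200C (chr12:6963699-6963766) and MIR141 (chr12:6964097-6964191), spanning 493 bases inside the single intron (chr12:6963349-6964200) of the long non-coding RNA gene MIR200CHG.

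Mature sequences were read from RefSeq (GRCh38.p14), where 8 of the 9 members matched by name; miR-141-5p did not. The 3p arms and miR-429 are shown because their seeds split the family across the clusters. Capitals mark the seed, and sequences run 5′ to 3′.
miR-200b-3p: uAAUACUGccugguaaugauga
miR-200c-3p: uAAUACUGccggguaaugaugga
miR-429: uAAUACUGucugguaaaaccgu
miR-200a-3p: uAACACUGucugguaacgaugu
miR-141-3p: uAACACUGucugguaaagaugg

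MiR-200b-3p, miR-200c-3p and miR-429 share the seed AAUACUG, and miR-200a-3p and miR-141-3p share AACACUG. The seeds differ at 1 base, U4C from miR-200b-3p to miR-200a-3p, with positions counted from 1 at the 5′ end. Each seed is therefore made from both clusters. No other mature name in the RefSeq table carries either seed. MiR-200b-3p and miR-200c-3p differ at 2 of 22 compared bases (U11G and A22G), as do miR-200a-3p and miR-141-3p (C17A and U22G). The sources used here do not give the mismatches allowed in read mapping; an exchange of reads within these pairs was not tested, and their separate levels are uncertain to that extent.

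The 5p arms are the minor arms of their hairpins and are shown because the balance between arms is followed below.
miR-200a-5p: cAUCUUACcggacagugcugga
miR-200b-5p: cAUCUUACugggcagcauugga
miR-200c-5p: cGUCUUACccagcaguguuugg

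MiR-200a-5p and miR-200b-5p share the seed AUCUUAC, whereas miR-200c-5p has GUCUUAC, which is also the seed of miR-550a-3p, a miRNA outside the family. The hairpins of miR-200b and miR-200c are given with both mature arms in capitals, to show where each arm lies.
MIR200B: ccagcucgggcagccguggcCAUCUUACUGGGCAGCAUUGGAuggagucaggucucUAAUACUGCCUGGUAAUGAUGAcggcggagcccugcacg
MIR200C: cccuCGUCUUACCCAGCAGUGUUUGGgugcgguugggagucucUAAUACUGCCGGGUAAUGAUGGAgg

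Library totals ran from 2591655 to 4706156 counts with ETBF and from 5243400 to 6522542 in controls, so every ETBF library was shallower than every control. A count of 0 would allow up to 3 counts, or 0.460 to 1.16 CPM, read counts scaled to the library's total, depending on the library, and every member was above that in all 8 libraries. These limits cover counting error only. With all libraries thinned to the shallowest total, 5 of the 6 family calls below were kept. Of 7 tested entries that resemble ribosomal RNA, snoRNA or repeats, listed to follow RNA quality, miR-7641 (log2 fold change 2.86, SE 0.23), miR-3687 (1.72, SE 0.34), miR-6087 (1.51, SE 0.49) and miR-1303 (0.84, SE 0.14) were higher with ETBF and 3 did not pass, with a median of 0.84, where 19.8% of all tested miRNAs were higher. The summed level of all 11 entries of that list was 216 to 631 CPM with ETBF and 65.6 to 195 CPM in controls. It moved with the groups, and its part in the results below was not tested. As a check of the cell type, 5 gut epithelial markers outside the family summed to 1993 to 2580 CPM with ETBF and 1879 to 2131 CPM in controls. Most of that sum was the epithelial miR-203a, at means of 1725 and 1286 CPM. MiR-375 (249 and 368 CPM) and miR-192-5p (149 and 184 CPM) were lower with ETBF. MiR-194-5p (168 and 155 CPM) did not pass, and miR-215-5p had too few counts to be tested. The 8 mesenchymal and muscle markers summed to 389 to 430 CPM and 415 to 430 CPM. Their 4 tested members did not pass, and the muscle marker miR-206 was at 0 in all libraries. The 8 blood and endothelial markers summed to 1072 to 1303 CPM and 1478 to 1665 CPM, most of it the endothelial miR-126-3p (1131 ± 98.6 and 1520 ± 83.9 CPM, SD, n = 4 each), while the myeloid miR-223-3p had 2 counts in all ETBF libraries together and 1 in all controls. The part of these other cell type markers in the results was not tested.

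The family was abundant in these cells. It took 2.57% ± 0.0772 of all counts with ETBF and 2.84% ± 0.103 in controls (n = 4 each, ± SD), with library values of 2.49% to 2.68% and 2.71% to 2.95%. The groups did not overlap, though narrowly, and 33.8% of single tested miRNAs were without overlap in CPM. MiR-200c-3p alone made up 43.4% ± 0.911 of the family's counts with ETBF and 47.1% ± 1.33 in controls, and miR-200b-3p 26.1% ± 1.22 and 23.3% ± 1.25. Among the 480 tested miRNAs, miR-200c-3p ranked 12 by mean level, miR-200b-3p 22, miR-200a-3p 26 and miR-429 45. The order of the 9 members was the same in both groups: miR-200c-3p, miR-200b-3p, miR-200a-3p, miR-429, miR-200a-5p, miR-141-3p, miR-200b-5p, miR-141-5p and miR-200c-5p. No neighbours in that order overlapped across the 4 libraries of either group. Mature entries with a RefSeq sequence are 22 or 23 bases long, so length hardly enters these comparisons; how well each sequence is captured in a small RNA library was not measured.

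Among the major arms, the widest gap lay inside the chromosome 12 cluster. MiR-200c-3p had 69.2 ± 10.5 times the reads of miR-141-3p in controls and 60.1 ± 4.40 times with ETBF (n = 4 each, ± SD), although both are cut from hairpins of the same intron. The minor arms stood the other way around: miR-200c-5p had 0.110 ± 0.0377 times the counts of miR-141-5p in controls and 0.124 ± 0.0335 times with ETBF.

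After 6 hours with ETBF the calls differed by arm. MiR-200c-3p, miR-429 and miR-200a-3p fell, by 1.24-fold, 1.17-fold and 1.14-fold, whereas miR-141-5p, miR-200c-5p and miR-200a-5p rose by 1.43-fold, 1.62-fold and 1.23-fold. MiR-200b-3p, miR-141-3p and miR-200b-5p did not pass the test. All 9 members passed the filter on low counts, and the calls come from edgeR's quasi-likelihood test with p-values adjusted over the 480 tested miRNAs and a threshold of 0.05. Of all tested miRNAs 34.4% passed, 19.8% higher and 14.6% lower, beside which stand the 3 higher and 3 lower of the 9 members. Over the 118 hairpins with both arms tested, 33 minor arms were higher and 11 lower, while 18 major arms were higher and 30 lower. These counts include the 4 family hairpins. A split of calls by arm was therefore not particular to the family. The median log2 fold change was -0.03 over the members and 0.01 over all tested miRNAs, and none of the members reached 2-fold. With upper-quartile scaling the split over all miRNAs was 71 higher and 89 lower, against 95 and 70 in the TMM-scaled fit. The groups were apart for 4 of the 9 members, where 33.8% of all tested miRNAs were without overlap.

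**Figure D1:**
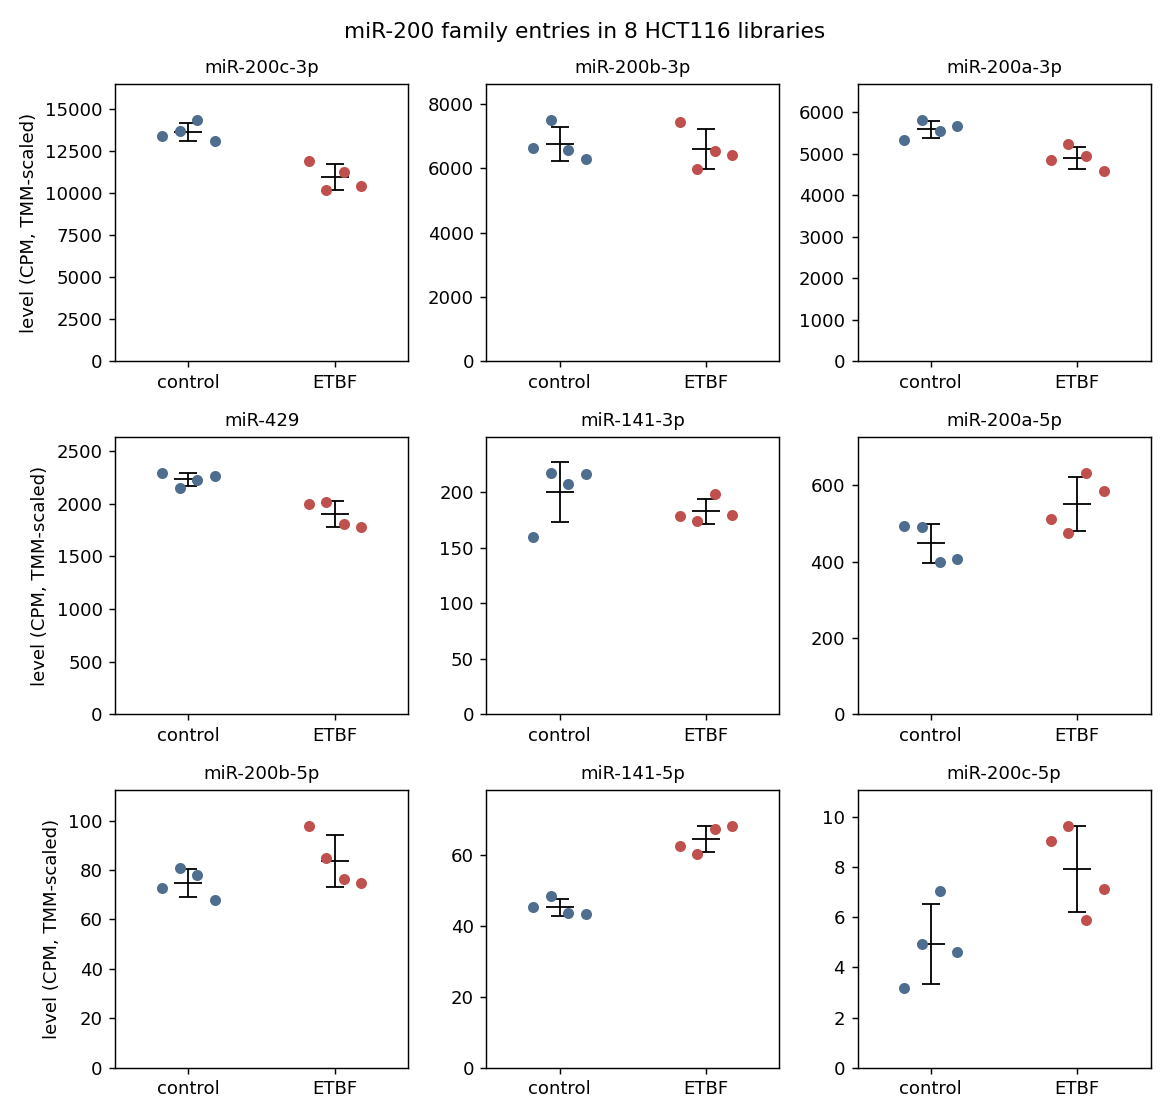
Level of each family entry in CPM with TMM scaling, from 0 on a linear axis, in the 4 control and 4 ETBF libraries; points are libraries, and the bar is the mean ± SD. The groups are apart for miR-200c-3p, miR-200a-3p, miR-429 and miR-141-5p and overlap for the other 5 entries.

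Among the major arms, miR-200c-3p, the most abundant member and a direct repressor of ZEB1, showed the clearest fall. Its level was 11905, 10222, 11269 and 10447 CPM in ETBF replicates 1 to 4 and 13423, 13683, 14368 and 13087 CPM in control replicates 1 to 4. All 4 ETBF libraries lay below all 4 controls. The means were 10961 ± 774 and 13640 ± 543 CPM (SD, n = 4 each), 1.24-fold lower with ETBF, or -0.32 on the log2 scale (SE 0.07, adjusted p = 0.00154). This call was kept under all 18 alternatives, at -0.40 to -0.26.

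MiR-429, which carries the same seed from the chromosome 1 cluster, was at 1996, 2020, 1806 and 1781 CPM with ETBF and 2290, 2144, 2224 and 2265 CPM in controls. Replicates 3 and 4 of ETBF were the lowest, and the groups were apart. It fell by 0.23 on the log2 scale (SE 0.07, adjusted p = 0.0132), from 2231 ± 63.8 to 1901 ± 125 CPM (SD, n = 4 each). Its call ended when ETBF replicate 3 or 4 was left out (adjusted p = 0.0576 and 0.0519) and with total-count scaling (adjusted p = 0.0826), within a range of 0.00219 to 0.0826 over its 18 alternatives.

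MiR-200a-3p, from the other seed group, was at 4843, 5227, 4941 and 4590 CPM with ETBF and 5322, 5817, 5542 and 5677 CPM in controls. The highest ETBF library, replicate 2, was just under the lowest control, replicate 1. It fell by 0.19 on the log2 scale (SE 0.06, adjusted p = 0.0308), the smallest change among the members that passed. The call was lost in 9 of its 18 alternatives, where the adjusted p ran from 0.00636 to 0.166. These included leaving out ETBF replicate 1, 3 or 4 (adjusted p = 0.0581, 0.0670 and 0.105) or control replicate 2, 3 or 4 (adjusted p = 0.0773, 0.0651 and 0.0687), as well as thinning to equal depth (adjusted p = 0.0598) and total-count scaling (adjusted p = 0.166).

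MiR-200b-3p, a ZEB1 and ZEB2 repressor and the second most abundant member, was at 7449, 5987, 6546 and 6406 CPM with ETBF and 6616, 7502, 6566 and 6288 CPM in controls. Each group had 1 library well above its other 3, ETBF replicate 1 and control replicate 2, and the groups overlapped. The log2 fold change was -0.03 (SE 0.08, adjusted p = 0.795), and the sign was positive under total-count scaling (0.0238) and without control replicate 2 (0.0094).

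MiR-141-3p, which shares the seed of miR-200a-3p, was far below the other major arms, at 174 to 199 CPM with ETBF and 160 to 217 CPM in controls. The groups overlapped through control replicate 1, the lowest of all 8 libraries. Its log2 fold change was -0.13 (SE 0.10, adjusted p = 0.342), and without control replicate 1 it was -0.23 (adjusted p = 0.0564).

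**Figure D2:**
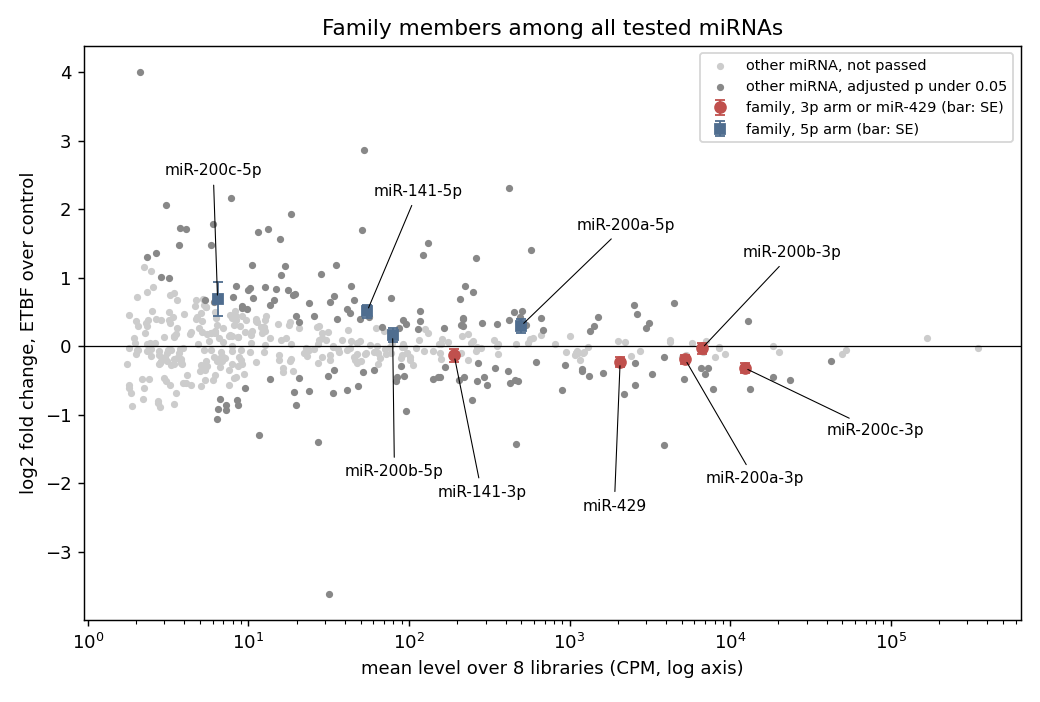
Log2 fold change of ETBF over control (edgeR) against mean level on a log axis for the 480 tested miRNAs; grey points are other miRNAs, red circles the 3p arms and miR-429, and blue squares the 5p arms, with SE bars. The 4 most abundant members lie at or below 0, from -0.32 to -0.03, and the 4 minor arms lie above 0, from 0.16 to 0.69.

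The 5p arms were all at higher mean levels with ETBF. MiR-141-5p, the minor partner of miR-141-3p, was at 62.5, 60.4, 67.3 and 68.1 CPM with ETBF and 45.3, 48.4, 43.7 and 43.4 CPM in controls. The lowest ETBF library was above the highest control by more than the range of either group. The log2 fold change was 0.51 (SE 0.09, adjusted p = 0.000458), and it passed in all 17 alternatives that could give a value (0.43 to 0.57).

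MiR-200a-5p, the most abundant minor arm of the family, was at 512, 474, 632 and 584 CPM with ETBF and 494, 492, 399 and 407 CPM in controls. The ETBF replicates 3 and 4 were well above all controls, and ETBF replicate 2 was below control replicates 1 and 2. It rose by 0.30 on the log2 scale (SE 0.10, adjusted p = 0.0310). Leaving out ETBF replicate 3 or 4 (adjusted p = 0.130 and 0.0694) or control replicate 3 or 4 (adjusted p = 0.0853 and 0.0982) ended the call, as did upper-quartile scaling (adjusted p = 0.0940), in a range of 0.00666 to 0.130.

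MiR-200c-5p, the rarest member, rested on few reads: 42, 41, 23 and 19 counts with ETBF and 16, 28, 37 and 31 in controls. Scaled for depth these were 9.03, 9.63, 5.91 and 7.11 CPM against 3.18, 4.93, 7.03 and 4.62 CPM, so that control replicate 3 lay inside the ETBF range. The log2 fold change was 0.69 (SE 0.25, adjusted p = 0.0393), and the call was lost in 10 of 17 alternatives (adjusted p from 0.0143 to 0.151). Among them were DESeq2 (adjusted p = 0.0705), no filter (adjusted p = 0.0523), upper-quartile scaling (adjusted p = 0.0703) and leaving out ETBF replicate 1, 2 or 4 (adjusted p = 0.113, 0.151 and 0.0513) or control replicate 1, 2 or 4 (adjusted p = 0.101, 0.0812 and 0.0884). MiR-200b-5p, at 74.9 to 97.8 CPM with ETBF and 68.0 to 80.7 CPM in controls, overlapped between groups and did not pass (0.16, SE 0.10, adjusted p = 0.254). Without ETBF replicate 1 its log2 fold change was 0.07 (adjusted p = 0.665).

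Summed by genomic cluster, the chromosome 12 cluster was lower with ETBF, and the chromosome 1 cluster overlapped between groups. Its 4 entries summed to 12155, 10465, 11540 and 10702 CPM with ETBF and 13631, 13954, 14627 and 13351 CPM in controls, a log2 ratio of the means of -0.31 without overlap. Nearly all of that sum is miR-200c-3p, and 33.8% of single tested miRNAs were without overlap. The 5 entries of the chromosome 1 cluster summed to 14899, 13793, 14002 and 13436 CPM against 14795, 16036, 14810 and 14704 CPM, a log2 ratio of -0.10 (-0.19 with upper-quartile and -0.05 with total-count scaling), and here ETBF replicate 1 was above 3 of the 4 controls. The chromosome 12 cluster accounted for 44.4% ± 0.910 of the family's counts with ETBF and 47.9% ± 1.31 in controls (n = 4 each, ± SD).

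Summed by seed, both groups of major arms were lower. Those with AAUACUG went from 22614 ± 783 to 19458 ± 1390 CPM and those with AACACUG from 5790 ± 236 to 5083 ± 262 CPM (SD, n = 4 each), log2 ratios of -0.22 and -0.19, neither with overlap. Of single tested miRNAs 33.8% were without overlap. Nearly all of the AACACUG sum is miR-200a-3p (4900 CPM with ETBF, 5590 CPM in controls), and miR-141-3p did not pass. In the AAUACUG group miR-200b-3p did not pass. Of the family's counts, AAUACUG carried 77.0% ± 1.55 with ETBF and 78.0% ± 0.718 in controls. Summed by arm, the 5p arms went the other way, from 573 ± 55.2 to 707 ± 65.8 CPM, a log2 ratio of 0.30 without overlap, and from 1.98% ± 0.177 to 2.80% ± 0.287 of the family's counts. All 9 entries together summed to 24137 to 27054 CPM with ETBF and 28054 to 29990 CPM in controls, a log2 ratio of -0.20. These sums are descriptions of chosen members and carry no test.

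**Figure D3:**
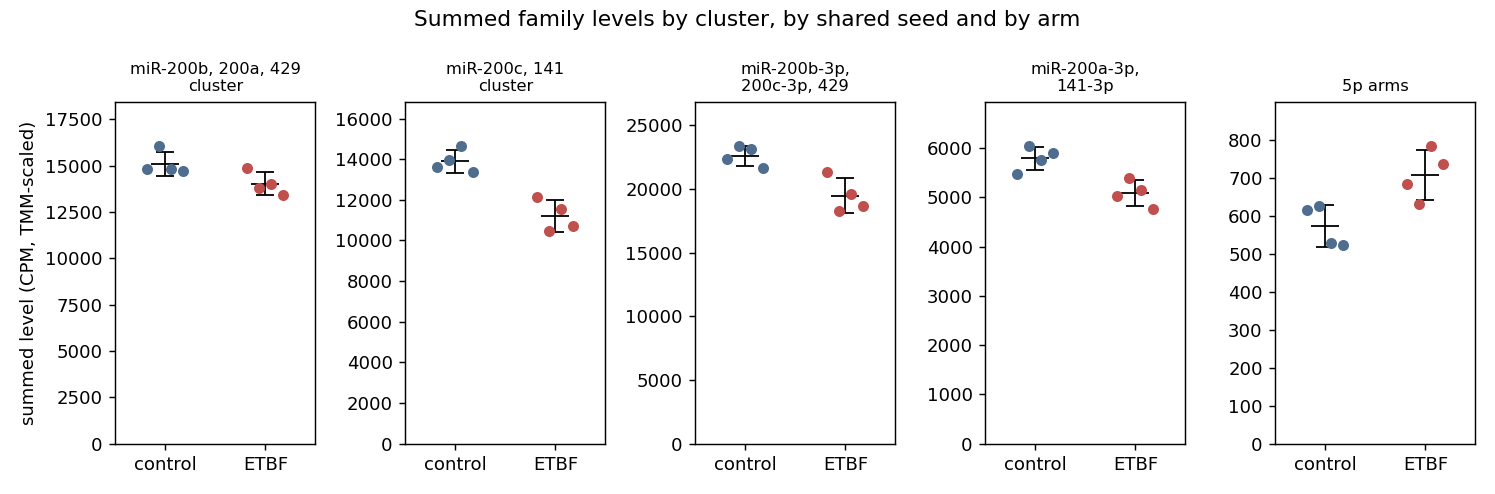
Summed CPM by genomic cluster, by shared seed of the major arms and over the 4 5p arms, from 0 on a linear axis, in each library; points are libraries and the bar is the mean ± SD. The chromosome 12 cluster, both seed groups and the 5p arms have no overlap between groups, while the chromosome 1 cluster overlaps.

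Whether members differed from one another in their response was asked with 5 ratios of counts within a library, which do not depend on the scaling. None of the 5 passed a two-sided exact permutation test after adjustment over the 5 ratios, and 1 had an unadjusted p under 0.05. That ratio was miR-200c-3p to miR-200b-3p, which have the same seed and come from different clusters. It was 1.60, 1.71, 1.72 and 1.63 with ETBF and 2.03, 1.82, 2.19 and 2.08 in controls, below every control in all 4 ETBF libraries. The difference in mean log2 ratio was -0.28 (exact permutation p = 0.0286, the smallest that 70 arrangements allow, adjusted p = 0.143).

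Within the chromosome 1 cluster, miR-429 to miR-200b-3p was 0.290 ± 0.0320 with ETBF and 0.333 ± 0.0325 in controls (± SD over 4 libraries each; exact permutation p = 0.0571, adjusted p = 0.143), and miR-200a-3p to miR-200b-3p was 0.749 ± 0.0935 and 0.832 ± 0.0551 (exact permutation p = 0.200, adjusted p = 0.250). The groups overlapped in both, and the log2 difference of the latter, -0.16, was -0.09 without ETBF replicate 1. The remaining ratios, miR-141-3p to miR-200c-3p (log2 difference 0.19, exact permutation p = 0.143, adjusted p = 0.238) and miR-141-3p to miR-200a-3p (0.07, exact permutation p = 0.543, adjusted p = 0.543), overlapped as well. Without control replicate 1 they were 0.10 and -0.0139. With 4 libraries a group, a ratio without overlap cannot pass after this adjustment unless at least 2 others also reach the smallest p, so the adjusted values say little about whether miR-200c-3p and miR-200b-3p responded alike.

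**Figure D4:**
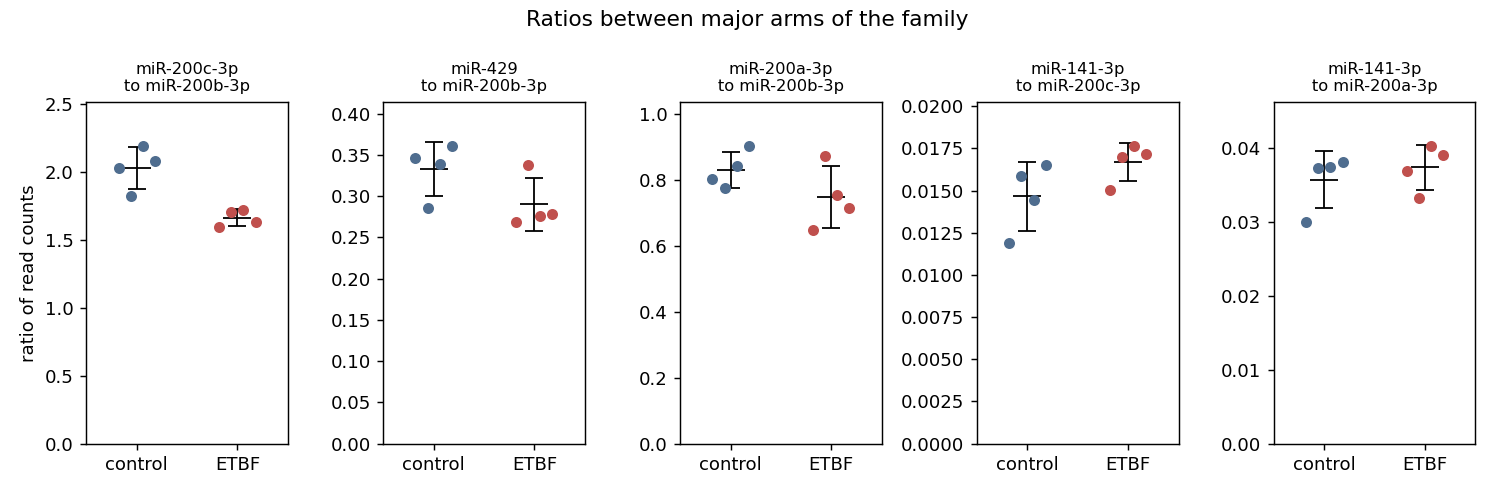
Ratio of read counts between major arms in each library, from 0 on linear axes; points are libraries and the bar is the mean ± SD. MiR-200c-3p to miR-200b-3p lies at 1.60 to 1.72 with ETBF and 1.82 to 2.19 in controls, and the other 4 ratios overlap.

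The balance of the arms was then compared within each hairpin, as log2 of the minor over the major arm count, by limma over the 118 hairpins with both arms past the filter on low counts. It moved towards the minor arm in 3 of the 4 family hairpins. Over all hairpins 32.2% passed, 26.3% towards the minor arm and 5.93% towards the major arm, so this movement was frequent among hairpins in general. The median change was 0.20 over the 118 hairpins, and the family's ranks were 12 for miR-200c, 23 for miR-141, 33 for miR-200a and 61 for miR-200b, counted from the largest increase. Of the 54 hairpins whose minor arm is the 5p arm, as in the family, 10 moved towards it and 3 away. Those 10 include the 3 family hairpins.

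In miR-141, the family hairpin with the most even arms, the 5p arm made up 25.9%, 25.8%, 25.3% and 27.5% of the reads of both arms with ETBF and 22.1%, 18.2%, 17.4% and 16.7% in controls. The groups did not overlap, and control replicate 1 was nearest to the ETBF libraries. The log2 ratio rose by 0.64 (SE 0.14, limma adjusted p = 0.00968). In miR-200c the 5p arm was 0.0758%, 0.0942%, 0.0524% and 0.0680% with ETBF and 0.0237%, 0.0360%, 0.0489% and 0.0353% in controls, so the lowest ETBF value was just above the highest control. Its log2 ratio rose by 1.03 (SE 0.24, limma adjusted p = 0.0127), on 16 to 42 reads of the minor arm per library. The 2 hairpins without overlap stand beside 33.1% of all hairpins.

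In miR-200a the 5p share was 9.57%, 8.32%, 11.3% and 11.3% with ETBF and 8.49%, 7.80%, 6.72% and 6.69% in controls. ETBF replicate 2 lay within the controls and the other ETBF libraries above them. The log2 ratio rose by 0.49 (SE 0.16, limma adjusted p = 0.0434). This call was lost without ETBF replicate 1, 3 or 4 (adjusted p = 0.0550, 0.0958 and 0.107) and without control replicate 2, 3 or 4 (adjusted p = 0.0709, 0.108 and 0.0986), within 0.00499 to 0.108 over its 12 alternatives. In miR-200b the 5p share was 1.25% ± 0.120 with ETBF and 1.10% ± 0.0506 in controls (n = 4 each, ± SD), and the log2 ratio did not pass (0.19, SE 0.12, limma adjusted p = 0.272). MiR-429 has no second entry and could not be included.

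**Figure D5:**
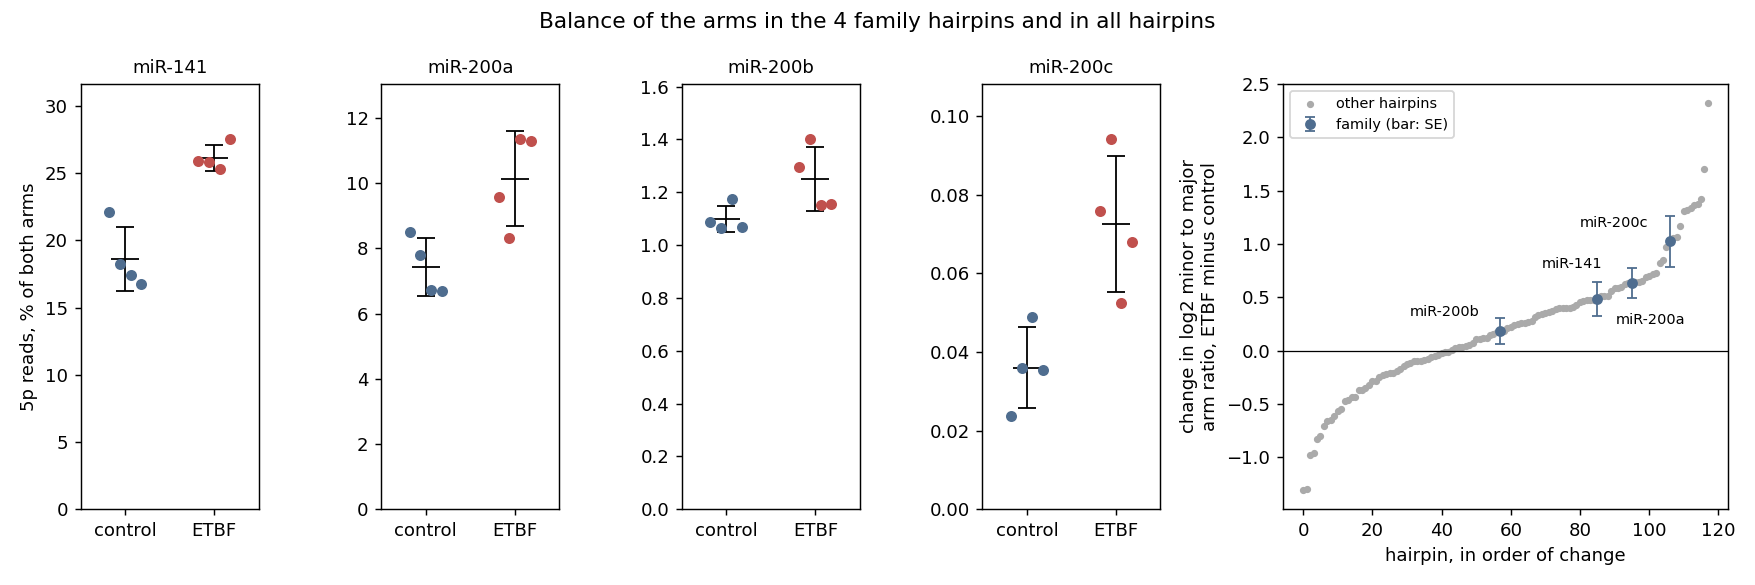
Left 4 panels: 5p reads as a percentage of both arms for each family hairpin, from 0 on linear axes, with points for libraries and mean ± SD bars; right panel: change in the log2 minor to major arm ratio for the 118 hairpins in order, with the family in blue and SE bars. The shares are apart for miR-141 and miR-200c, and the 4 family hairpins lie above 0, among many others.

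Other miRNAs of the same epithelial-mesenchymal circuit are set beside the 19.8% higher and 14.6% lower of all tested miRNAs; the lists are short, and nothing particular to them is read from their counts. Of 12 tested miRNAs that hold the epithelial state by targeting ZEB or SNAI factors or their helpers, 3 rose, 3 fell and 6 missed the threshold, at a median log2 fold change of -0.02 beside 0.01 over all tested miRNAs. MiR-203a, which represses SNAI2 (0.42, SE 0.09), miR-34a-5p, a p53-induced repressor of SNAI1 (0.40, SE 0.09), and miR-30a-5p (0.32, SE 0.08) rose. MiR-30d-5p fell by 0.62 (SE 0.07), miR-192-5p, a ZEB2 repressor of gut epithelium, by 0.30 (SE 0.09) and miR-30c-5p by 0.16 (SE 0.06). The miR-30 members share a seed and may share reads. MiR-205-5p, which targets ZEB1 and ZEB2 together with the miR-200 family, summed to 21 counts in the ETBF group and 22 in the control group, too few for the filter.

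Of 9 tested miRNAs linked to the mesenchymal state or to lower Dicer, 2 rose, 2 fell and 5 missed the threshold, at a median of -0.03. MiR-103a-3p and miR-107, near-identical miRNAs that repress Dicer and have been linked to lower miR-200 levels, rose by 0.37 (SE 0.07) and 0.39 (SE 0.07). MiR-222-3p fell by 0.63 (SE 0.07) and miR-27a-3p by 0.57 (SE 0.07). The E-cadherin repressor miR-9-5p was at -0.03 (SE 0.09) and the metastasis-linked miR-10b-5p at -0.06 (SE 0.08). Of the gut epithelial markers, 1 of 4 tested was higher, miR-203a, and 2 were lower, miR-192-5p and miR-375, the latter by -0.56 (SE 0.07). Against the same 19.8% higher and 14.6% lower, in the blood and endothelial list 1 of 5 tested was higher, the erythroid miR-451a (1.94, SE 0.35), and 1 lower, miR-126-3p (-0.43, SE 0.08). MiR-451a was uneven among the ETBF libraries, at 29.4 ± 19.8 CPM against 7.24 ± 1.97 CPM in controls (SD, n = 4 each).

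Likeness of profile was measured as the root-mean-square difference of log2 CPM after centring each miRNA over the 8 libraries, where a smaller value means a closer profile. Nearest to miR-200c-3p were miR-95-3p (0.056), miR-1180-3p (0.064) and miR-24-3p (0.074). Nearest to miR-200b-3p were miR-30e-3p (0.040), miR-9-5p (0.048) and miR-21-5p (0.056), none of which passed the test. Within the family, miR-429 and miR-200a-3p, from 1 cluster with different seeds, were the closest members (0.074), each ranking 4 or 5 among the 479 other miRNAs for the other. Seen from miR-200c-3p, miR-429 ranked 16 and miR-200a-3p 25. The 8 points of each profile share their library depth and scaling.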

How the data were processed

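Small RNA was sequenced from 4 ETBF and 4 control libraries, grouped by their titles. The authors deposited 1 file of raw counts for each library, with a row per mature name. The submitters' processing notes name Trimmomatic, FastQC, featureCounts and GRCh37.p5; the sources used here do not give versions, aligner, annotation release or strandedness. The counts of the 9 members share no common divisor above 1. Within groups, chi-square per degree of freedom between libraries was 18.4 to 112, so libraries of a group differed by more than counting error alone. That does not settle whether any of them came from the same RNA. Pairs across groups were not compared. Whether the libraries came from separate cultures cannot be told from these values.

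Counts were fitted with edgeR 4.0.16 in R 4.3.3 (quasi-likelihood F test, TMM, default filter at a minimum count of 10, Benjamini-Hochberg adjustment over 480 miRNAs, two-sided). SE was derived from the log2 fold change and its F statistic. CPM are TMM-scaled. Arm ratios used limma 3.58.1 on log2 counts with 0.5 added. Ratios between members used exact permutation. Scripts were tested on simulated data. Members, lists and the naming rule were chosen with earlier results of these data known. The rule names all members, listed miRNAs past the threshold (at most 6 per list) and the 3 nearest profiles; miR-205-5p, miR-206, miR-223-3p, miR-9-5p and miR-10b-5p were added after their values were seen. Alternatives were other scalings, filters and tools (DESeq2 1.42.0, limma-voom), thinning to 2591655 counts, removal of a GC trend, a replicate block and leaving out each library.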

Additional observations from a re-analysis of the deposited data

Results flagged for a closer look

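In 4 of 48 groups of 4 values, 1 library stood apart from the other 3 by more than Dixon's 95% critical value of 0.829 for the gap over the range; chance flags about 1 in 20 such groups. Control replicate 1 was at 160 CPM for miR-141-3p, against 208 to 217 CPM in the other controls, and at 0.0300 for the ratio of miR-141-3p to miR-200a-3p, against 0.0373 to 0.0380. Control replicate 2 was at 16036 CPM for the summed chromosome 1 cluster, against 14704 to 14810 CPM. ETBF replicate 2 was at 0.337 for the ratio of miR-429 to miR-200b-3p, against 0.268 to 0.278 in the other ETBF libraries.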

How the results depend on the processing

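Counts of calls over all miRNAs stayed within 1.5 times under 18 alternatives (71 to 106 higher, 59 to 89 lower). Their share did not, because the number tested changed with the filter. With no filter 89 were higher and 79 lower of 1496, and at a minimum count of 50, 81 and 63 of 294. With upper-quartile scaling the log2 ratio of summed levels moved by more than the replicate SD, to -0.19 for the chromosome 1 cluster, -0.40 for the chromosome 12 cluster, -0.30 for seed AAUACUG, -0.27 for seed AACACUG and -0.28 for all 9 entries; total-count scaling gave smaller falls, -0.05, -0.26, -0.16, -0.13 and -0.14 in the same order; the cause was not tested. MiR-200b-3p changed sign with total-count scaling (0.0238), and leaving out 1 library gave -0.108 (without ETBF replicate 1) to 0.0094 (without control replicate 2). Leaving out 1 library gave 4 to 7 hairpins moving towards the major arm, lowest without ETBF replicate 4. The log2 difference for miR-141-3p to miR-200a-3p then ran from -0.0139 to 0.123, and was negative without control replicate 1. No exact permutation p was computed with 1 library left out. Same-numbered libraries did not deviate together (correlations -0.06 to 0.06). The labels do not say whether the numbers pair the samples, and these correlations cannot settle it. With the replicate block 92 miRNAs were higher and 67 lower, the calls of miR-200a-3p (adjusted p = 0.0576), miR-200a-5p (adjusted p = 0.0865), miR-200c-5p (adjusted p = 0.0785) and the miR-200a arm ratio (adjusted p = 0.0997) were lost, and the other family calls were kept; 0 of 4 ETBF libraries correlated best with the control of their own number. At a minimum count of 50 miR-200c-5p could not be tested, and GC removal had no sequence for miR-141-5p. Depth limits miR-200c-5p, with at most 42 counts in a library.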
